A study of Mus musculus with 2 samples.

Results

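Cycling macrophages of injured quadriceps at day 3 were examined by single-cell RNA sequencing, and 516 such cells were found among 4627 cells of day 3 and 11362 cells of both time points. A cell was counted as a macrophage when it held at least 2 UMIs (single captured RNA molecules) of *Fcgr1* and *Adgre1* together, the genes of CD64 and F4/80, had at least 0.3% of its UMIs from *Lyz2*, and had less than 0.3% from *Col1a1*, *Col1a2*, *Col3a1* and *Dcn*. Of the 2565 macrophages of day 3 so defined, those with at least 2 UMIs of *Top2a* and *Mki67* were taken as cycling. The 1723 macrophages without a UMI of either gene served for comparison, and the 326 with exactly 1 UMI were kept apart. Cells were called from the 6640 barcodes with the most UMIs, of which 2013 exceeded the limit of 7.5% mitochondrial UMIs.

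All mice were male WT C57BL/6J of 14 weeks whose quadriceps was injured with BaCl2, and muscle mononuclear cells were taken at day 1 or day 3. Cells of several mice were pooled, sorted by light scatter against dead cells, duplexes and debris, cryopreserved and thawed before capture, and the scatter gate can set shares of large or dividing cells. Each time point had 1 library, so no value has a replicate, no test was possible and no p-value is given. Levels are UMIs per 1000000 UMIs (CPM), summed over the cells of a group. Ranges in parentheses after a value are 95% confidence intervals, exact Poisson for CPM, exact binomial for ratios and Clopper-Pearson for shares, and cover counting error only. The list of possible barcodes held 737280 entries on day 1 and 6794880 on day 3, so the day and the library version cannot be told apart. No barcode was shared by the cells of both days, and the libraries held 74852240 and 102565783 UMIs.

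A dividing cell licenses its replication origins in G1, copies its DNA in S phase, and then builds a spindle in G2 and mitosis. Cyclins and their kinases drive these steps, kinase inhibitors restrain them, and E2F factors and the B-MYB and FOXM1 programme turn on the genes of S phase and of mitosis in turn. After acute muscle injury, Ly6C-high monocytes enter the tissue from blood and become macrophages, some of which divide in place. *Top2a* encodes the topoisomerase that untangles DNA, and *Mki67* the Ki-67 protein that coats mitotic chromosomes. Both chose the cells here and are given only as a description, at a median of 7 UMIs per cycling cell and a maximum of 86.

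The label of the cells was checked with 2 marker genes that did not choose them, although these lie in the same cells. *Pclaf*, which encodes a factor bound to the PCNA clamp, had 295 CPM (285 to 304) in cycling macrophages and 6.36 CPM (5.38 to 7.46) in non-cycling ones, a log2 ratio of 5.53 (5.30 to 5.78). *Stmn1*, which encodes the microtubule-destabilizing protein stathmin, had 677 CPM (663 to 692) and 67.5 CPM (64.2 to 70.9), a log2 ratio of 3.33 (3.25 to 3.41). A median cycling macrophage held 5 UMIs of *Pclaf* (quartiles 1 and 12) and 13 of *Stmn1* (quartiles 6 and 24). In neutrophils of the same library, 148 cells with at least 1% of their UMIs from *S100a8* and *S100a9* and no UMI of *Fcgr1* or *Adgre1*, *Pclaf* was at 0 CPM and *Stmn1* at 7.59 CPM. These neutrophils held only 263477 UMIs in all, so their 0 CPM of *Pclaf* cannot be told from the 6.36 CPM of non-cycling macrophages. None of the 148 neutrophils had 2 UMIs of *Top2a* and *Mki67*, with an upper limit of 2.46% (95% Clopper-Pearson), or 2.03% by a floor of 3 counts in 148 cells, at a median depth of 1618 UMIs against 14117 in gated macrophages.

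Cycling cells made up 20.1% (18.6 to 21.7) of the gated macrophages of day 3. The share was 29.2% (25.2 to 33.4) of 493 fibro-adipogenic progenitors (FAPs), the collagen-producing mesenchymal cells of muscle, taken here as cells with a UMI of *Pdgfra*, at least 1% of UMIs from the 4 collagen and decorin genes, and no UMI of *Fcgr1* or *Adgre1*. Cycling macrophages were deeper than non-cycling ones, with medians of 22736 and 11935 UMIs and of 4545 and 3116 genes per cell. Cells that had reached more UMIs could pass the limit of 2 UMIs more easily, and a larger cell also holds more RNA. How far either sets the difference in depth cannot be told apart here. With every cell thinned to 3000 UMIs, which left out 17 macrophages, a UMI of *Top2a* or *Mki67* remained in 16.0% (14.6 to 17.5) of macrophages and 23.0% (19.3 to 27.0) of FAPs, and in 0 of the 6 neutrophils that deep.

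The limit of 2 UMIs ran through a continuous range rather than a gap. The 112 cells just inside it, with exactly 2 UMIs, had 49.7 CPM of *Pclaf*, 286 of *Stmn1* and 11.8 of *Ccna2*, the cyclin of S and G2 phase. The 326 cells just outside, with 1 UMI, had 18.2, 147 and 4.54 CPM. The 188 cells with 12 or more UMIs had 467, 962 and 214 CPM. At least 1 UMI of 6 further cycle genes (*Pclaf*, *Birc5*, *Ube2c*, *Ccna2*, *Cdk1* and *Rrm2*) was present in 90.5% (87.6 to 92.9) of cycling macrophages, 33.4% (28.3 to 38.8) of those with 1 UMI, 21.1% (19.2 to 23.1) of non-cycling ones and 2.03% (0.420 to 5.81) of neutrophils. After thinning to 3000 UMIs the shares of the 3 macrophage groups were 72.8% (68.7 to 76.6), 13.5% (9.98 to 17.7) and 7.08% (5.91 to 8.41). Both groups thus hold some cells of the other kind by these genes. As the plot by UMI class shows, the same order held in the other direction for the monocyte gene *Plac8*, at 495, 193, 119 and 46.2 CPM in cells with 0, 1, 2 and 12 or more UMIs.

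**Figure D1:**
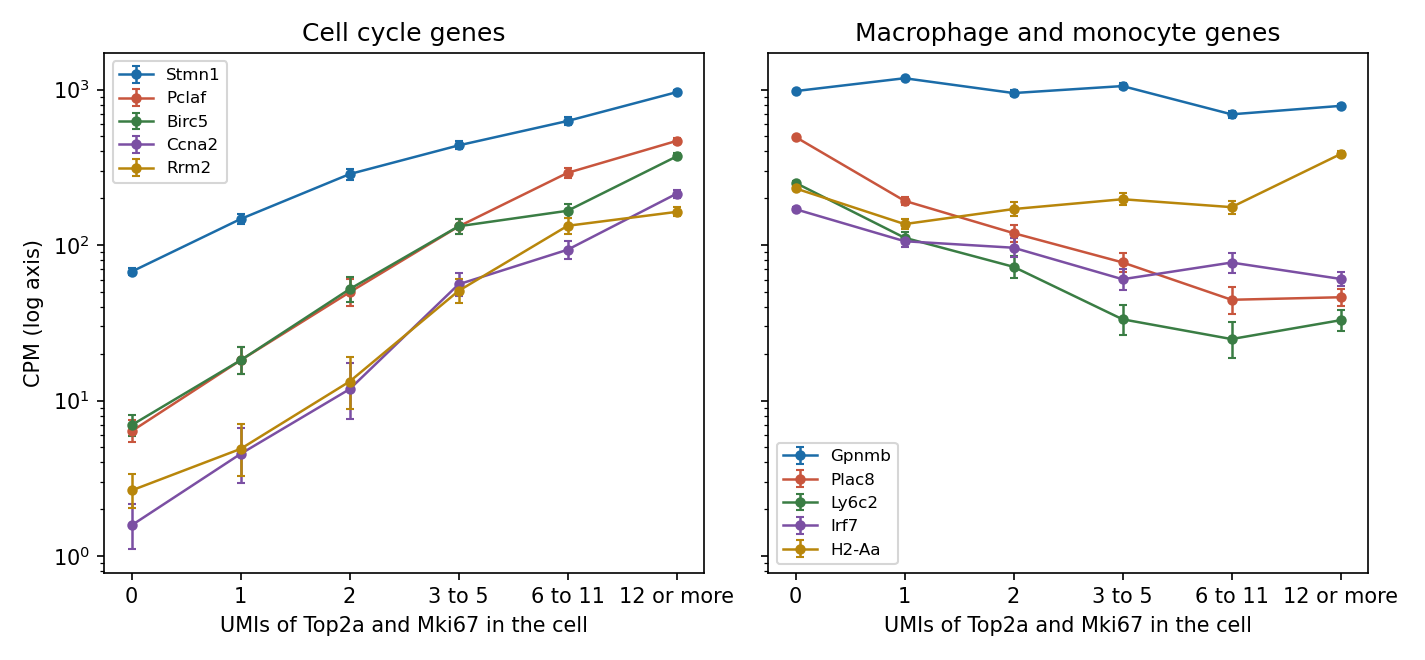
Levels of 5 cell cycle genes (left) and 5 macrophage or monocyte genes (right) in gated macrophages of day 3, by the UMIs of Top2a and Mki67 in the cell. Points are CPM summed over the cells of a class on a log axis, and bars are 95% Poisson intervals; Pclaf goes from 6.36 to 467 CPM and Plac8 from 495 to 46.2 CPM, while Gpnmb stays between 693 and 1183 CPM.

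Among 8433 genes with at least 200 UMIs in both groups together, leaving out mitochondrial and ribosomal protein genes, *Top2a* and *Mki67*, 440 were at least 2-fold higher in cycling macrophages, or 5.22%, and 132 were at least 2-fold lower, or 1.57%. The median log2 ratio of all genes compared was 0.06. The cells were chosen by 2 cell cycle genes, so the levels of other cell cycle genes in the same cells are given as a description. Of the 440 higher genes, 172 belonged to the lists of cell cycle genes and 268 did not.

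Genes of DNA replication stood higher nearly throughout. Of the 41 replication genes compared, 39 were at least 2-fold higher and none was 2-fold lower, with a median log2 ratio of 2.14. Together they took 2847 CPM in cycling and 669 CPM in non-cycling macrophages. *Pcna*, the sliding clamp and the replication gene with the most UMIs in cycling cells, had 380.1 CPM (369 to 391) against 127 CPM (122 to 131), a log2 ratio of 1.59 (1.52 to 1.65). The helicase subunits *Mcm3* and *Mcm5* had 119 and 120.3 CPM against 29.6 and 22.8. *Mcm10*, needed to start the helicase, had 24.8 against 1.62 CPM, a log2 ratio of 3.92 (3.45 to 4.46). *Lig1*, the ligase that seals the lagging strand, had 116 against 17.2 CPM, and *Uhrf1*, which brings the maintenance methyltransferase to new DNA, 76.2 against 5.20 CPM. The genes under 2-fold were *Rpa3*, the small subunit of replication protein A with a log2 ratio of 0.66 (0.34 to 0.98), and *Gins4*, a subunit of the helicase complex with 0.85 (0.66 to 1.05). Non-cycling macrophages held these genes at levels above 0 as well, and *Pcna* in particular was present at 127 CPM without a UMI of *Top2a* or *Mki67*.

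Genes of nucleotide supply were higher in part. Of 25 genes compared, 17 were at least 2-fold higher, with a median log2 ratio of 1.14. Both ribonucleotide reductase subunits stood high, *Rrm2* with 109 CPM (103 to 115) against 2.64 CPM (2.03 to 3.39) and *Rrm1* with 133 against 16.9 CPM. *Tk1*, thymidine kinase, had a log2 ratio of 4.21 (3.94 to 4.51), and *Tyms*, thymidylate synthase, 3.72 (3.47 to 3.99). *Impdh2*, of guanine nucleotide synthesis, had a log2 ratio of 1.09 (0.97 to 1.21), and of the genes of purine synthesis *Ppat* had 1.38, *Paics* 1.04, *Gart* 0.71 and *Atic* 0.72. The one gene below 0 was *Samhd1*, which encodes an enzyme that breaks down deoxynucleotides, with 116 CPM (110.3 to 122) against 209 CPM (204 to 215), a log2 ratio of -0.85 (-0.93 to -0.76) that does not reach 2-fold. Restricted to cells under 100 CPM of 4 monocyte genes (described with the lower genes), the log2 ratio of *Samhd1* was -0.36.

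Genes of the S phase checkpoint and of DNA repair followed, with 18 of 21 at least 2-fold higher and a median log2 ratio of 2.25. *Clspn*, the adaptor of the checkpoint kinase CHK1, had a log2 ratio of 3.90 (3.57 to 4.27), and *Brca1* of 2.97 (2.62 to 3.35). *Neil3*, a DNA glycosylase that unhooks interstrand crosslinks, had 215 UMIs in cycling and 4 in non-cycling macrophages, a log2 ratio of 6.51 (5.30 to 8.56).

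Mitotic genes were higher as well, and the genes that chose the cells are themselves of mitosis and chromosome structure. Without *Top2a* and *Mki67*, 69 of 75 were at least 2-fold higher, with a median log2 ratio of 4.39 and summed levels of 8148 and 1653 CPM. With the same cells thinned to 3000 UMIs, the mitosis and replication medians were 1.75 and 2.20. With cells chosen after thinning they were 1.60 and 1.44. Thinning left 4065 and 4471 genes with at least 200 UMIs, so these medians rest on fewer genes. Weighting non-cycling cells to the depths of cycling ones kept all 8433 genes and gave medians of 4.05 and 1.85. Several mitotic genes were nearly absent from non-cycling macrophages: *Nusap1*, a spindle microtubule binder, had 71.7 CPM (67.1 to 76.6) against 0.426 CPM (0.204 to 0.784), and *Cenpf*, a kinetochore protein, 94.7 CPM (89.3 to 100.2) against 0.853 CPM (0.521 to 1.32). *Ccna2* had 125 against 1.58 CPM, a log2 ratio of 6.28 (5.83 to 6.82), *Ccnb1*, the mitotic cyclin, 5.19 (4.80 to 5.63), and *Cdk1*, its kinase, 4.72 (4.43 to 5.03). *Plk1*, the Polo-like kinase, had a log2 ratio of 5.88 (5.11 to 6.90) and *Foxm1*, the factor of the mitotic programme, 5.18 (4.43 to 6.16). *Birc5*, which encodes survivin of the chromosomal passenger complex, had 229.8 against 6.95 CPM. Tubulins were high in both groups, with *Tubb5* at 1343 against 450.4 CPM, a log2 ratio of 1.58 (1.54 to 1.61). The genes under 2-fold were *Ccnf*, *Bub3*, *Espl1*, *Ncapg2*, *Tuba1c* and *Pttg1*. In cells under 100 CPM of the 4 monocyte genes, *Ccnf* had a log2 ratio of 2.69 (2.16 to 3.31), against 0.93 over all cells. Its UMIs there were below the minimum of 200, and the others of the 6 stayed under 2-fold. *Pttg1*, which encodes securin, was the only one of the list below 0, at 35.6 CPM (32.3 to 39.1) and 39.2 CPM (36.7 to 41.8), a log2 ratio of -0.14 (-0.31 to 0.03), and was at 83.5 CPM in neutrophils.

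**Figure D2:**
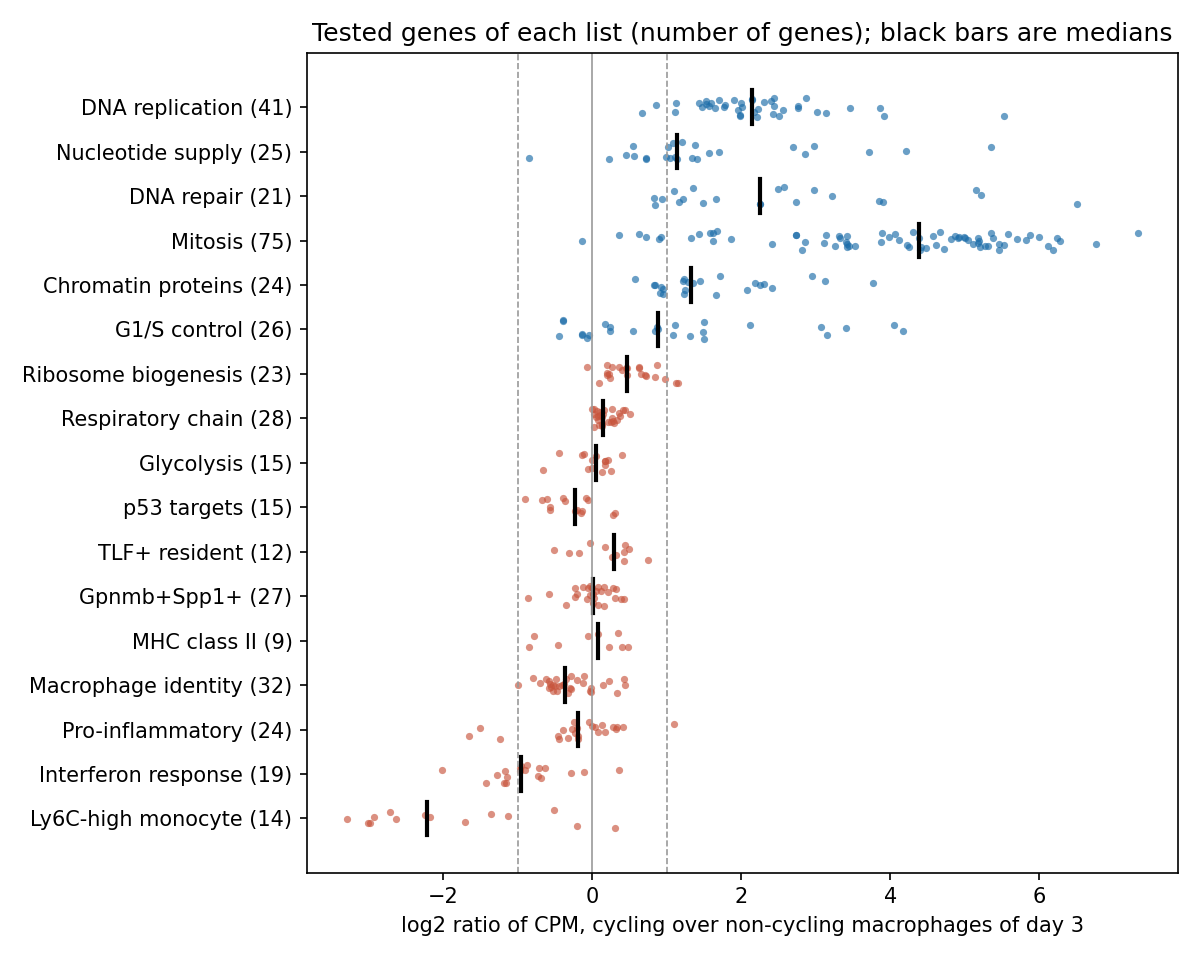
Log2 ratio of CPM, cycling over non-cycling macrophages of day 3, for each compared gene of 17 lists; the number of genes is in parentheses. Each point is 1 gene, black bars are list medians and dashed lines mark 2-fold; cell cycle lists (blue) have medians from 0.88 to 4.39 and the other lists (red) from -2.22 to 0.46.

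Among all genes compared, the 10 with the highest log2 ratio were *Esco2*, *Nusap1*, *Cenpf*, *Neil3*, *Hist1h3c*, *Ccna2*, *Prr11*, *Aspm*, *Hist1h1b* and *Kif4*. All 10 passed the count minimum through the cycling cells, as *Neil3* with 215 UMIs there and 4 in non-cycling cells, so their rank is a description only. *Esco2*, the acetyltransferase that establishes cohesion between sister chromatids, had 363 UMIs in cycling and 3 in non-cycling macrophages, and 3 counts leave the ratio wide at 7.62 (6.29 to 10.13). *Aspm*, of the spindle poles, had 6.24 (5.45 to 7.31) and *Kif4*, a chromosome-binding kinesin, 6.19 (5.36 to 7.33). Outside the cell cycle lists the highest were *Esco2*, *Hist1h3c*, *Prr11*, *Hist1h1b*, *Ska1*, *Pimreg*, *BC030867*, *Cep55*, *Hist1h2ap* and *Lrr1*. Several of these are known cell cycle genes that the lists lacked, such as *Ska1* of the kinetochore with 6.15 (5.18 to 7.57) and *Cep55* of cell abscission with 5.47 (4.75 to 6.402). *Hist1h1b*, a replication-dependent linker histone, had 104 CPM (98.7 to 110.2) against 1.36 CPM (0.934 to 1.93). Reads of replication-dependent histone genes are uncertain, because the copies are nearly identical and their RNAs mostly lack the poly(A) tail that the 3′ kit primes.

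Chromatin proteins were higher from a high base. Of 24 genes compared, 17 were at least 2-fold higher and all 24 had a log2 ratio above 0, with a median of 1.32. *H2afz*, the histone variant H2A.Z, had 1829 CPM (1805 to 1853) against 714 CPM (704 to 725), and *Hmgb2*, a DNA-bending protein, 417 against 92.2 CPM, a log2 ratio of 2.18 (2.11 to 2.25). *Hells*, a remodeller of DNA methylation, had 2.95 (2.72 to 3.19) and *Asf1b*, a histone chaperone of dividing cells, 3.76 (3.45 to 4.11). *Ptma*, prothymosin alpha, was the most abundant at 3393 against 1793 CPM, with a log2 ratio of 0.92 (0.90 to 0.94).

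Promoters of these genes were compared for short motifs, because replication and mitotic genes moved together within their lists. Sequences are from RefSeq on GRCm38.p6, the patch release of the mm10 build named in the processing notes, in windows from 250 bases before to 50 after a gene's first listed start. Motifs were searched on both strands: CCAAT, bound by NF-Y; CHR, as TTTGAA or TTTAAA, the element of mitotic genes; and E2F, as TTTCCCGC, TTTGGCGC, TTTCGCGC or TTTGCCGC. CHR letters were present in 51 of 69 promoters of mitotic genes, or 73.9%, in 9 of 35 of replication genes, or 25.7%, and in 27.8% of 27025 promoters. E2F letters were present in 13 of 35 replication promoters, or 37.1%, in 6 mitotic ones, or 8.70%, and in 2.32% of all. CCAAT was found in 62.9% of replication, 72.5% of mitotic and 37.9% of all promoters. These motifs were not particular to the 2 lists: CCAAT was in 7 of 11 promoters of the monocyte list, or 63.6%, and CHR in 57.9% of chromatin and 37.5% of interferon promoters. Among the promoters of 6912 genes compared, the shares were 18.8% for CHR, 4.57% for E2F and 38.7% for CCAAT. A match is a run of letters and was not tested as a binding site.

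Windows are shown for the 2 genes that chose the cells, for *Pclaf*, and for the replication and mitosis genes with the most UMIs in cycling macrophages, each from 250 bases before to 20 after the start on the strand of the gene, with the letters of the 3 motifs in capitals. *Top2a* (chr11:99024170-99024439, minus strand), *Mki67* (chr7:135716360-135716629, minus strand), *Pclaf* (chr9:65890073-65890342, plus strand), *Pcna* (chr2:132253161-132253430, minus strand) and *Tubb5* (chr17:35838282-35838551, minus strand) lie in the order given.
Top2a: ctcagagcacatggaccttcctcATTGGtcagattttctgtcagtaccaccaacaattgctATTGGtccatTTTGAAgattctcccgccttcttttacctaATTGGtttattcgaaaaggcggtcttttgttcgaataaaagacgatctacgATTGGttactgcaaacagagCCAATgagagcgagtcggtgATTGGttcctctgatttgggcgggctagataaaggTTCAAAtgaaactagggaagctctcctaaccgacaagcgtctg
Mki67: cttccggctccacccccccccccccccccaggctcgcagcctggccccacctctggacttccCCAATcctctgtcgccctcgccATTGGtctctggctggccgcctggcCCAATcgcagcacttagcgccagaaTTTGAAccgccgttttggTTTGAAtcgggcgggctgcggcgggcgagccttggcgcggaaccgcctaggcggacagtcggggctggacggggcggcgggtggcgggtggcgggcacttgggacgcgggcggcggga
Pclaf: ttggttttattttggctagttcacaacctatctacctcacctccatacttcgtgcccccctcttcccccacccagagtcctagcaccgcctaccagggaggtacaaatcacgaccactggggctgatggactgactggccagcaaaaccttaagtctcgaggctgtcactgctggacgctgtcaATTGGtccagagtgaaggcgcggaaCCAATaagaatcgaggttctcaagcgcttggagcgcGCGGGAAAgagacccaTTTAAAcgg
Pcna: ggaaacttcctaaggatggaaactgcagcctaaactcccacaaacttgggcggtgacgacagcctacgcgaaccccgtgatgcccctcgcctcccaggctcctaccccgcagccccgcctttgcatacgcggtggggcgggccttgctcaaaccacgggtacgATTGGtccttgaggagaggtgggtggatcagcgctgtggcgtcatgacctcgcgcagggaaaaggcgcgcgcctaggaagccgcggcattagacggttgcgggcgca
Tubb5: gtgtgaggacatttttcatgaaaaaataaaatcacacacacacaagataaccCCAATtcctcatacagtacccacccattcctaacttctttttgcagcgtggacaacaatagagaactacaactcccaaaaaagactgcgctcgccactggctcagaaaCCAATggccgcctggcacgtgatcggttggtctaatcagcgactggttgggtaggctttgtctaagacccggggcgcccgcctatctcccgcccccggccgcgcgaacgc

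No motif overlapped another in these windows. *Top2a* carried 6 CCAAT matches and CHR matches that begin 179 and 23 bases before the start, and *Mki67* 3 CCAAT matches and CHR matches that begin 116 and 98 bases before it. *Pclaf* alone of the 5 held all 3 motifs, with an E2F match that begins 5 bases before the start and a CHR match that begins at base 12. *Pcna* held 1 CCAAT match and *Tubb5* 2, with neither of the other motifs in these letters. The log2 ratios beside these windows were 5.53 for *Pclaf*, 1.59 for *Pcna* and 1.58 for *Tubb5*.

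Regulators of the G1/S step differed among themselves, also within a type. Cyclin E, which opens S phase with CDK2, was high in cycling macrophages, *Ccne1* with 31.4 CPM (28.4 to 34.7) against 2.94 CPM (2.29 to 3.72) and *Ccne2* with 36.6 CPM (33.3 to 40.1) against 2.005 CPM (1.47 to 2.67). *Ccnd1*, the cyclin D that growth factors induce, had 140.0 against 76.1 CPM, a log2 ratio of 0.88 (0.78 to 0.98), *Ccnd3* had -0.07 (-0.21 to 0.07), and *Ccnd2* was at only 3.32 and 5.67 CPM. Among E2F factors, the activators *E2f1* and *E2f2* had log2 ratios of 1.496 (1.34 to 1.65) and 1.49 (1.25 to 1.73), the activator *E2f3* of 0.55 (0.24 to 0.86), and the repressor *E2f8* of 3.06 (2.69 to 3.47). The repressor *E2f7* had 147 UMIs in cycling and 2 in non-cycling macrophages and fell below the count minimum. Of the pocket proteins, *Rbl1* (p107) had 2.12 (1.86 to 2.39), and *Rb1* had -0.04 (-0.20 to 0.11).

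Kinase inhibitors did not move as one. *Cdkn2c* (p18) had 53.9 CPM (49.9 to 58.1) in cycling and 6.06 CPM (5.10 to 7.14) in non-cycling macrophages, a log2 ratio of 3.15 (2.89 to 3.43), and *Cdkn2d* (p19) had 0.87 (0.73 to 1.02). *Cdkn3*, a phosphatase of cyclin-dependent kinases, had 4.05 (3.69 to 4.45). *Cdkn1a* (p21) was abundant in both groups, at 209 CPM (201 to 217) and 274 CPM (267 to 280.4), and *Cdkn1b* (p27) was at 29.34 and 38.6 CPM, with log2 ratios of -0.39 (-0.46 to -0.32) and -0.39 (-0.58 to -0.22). Over the whole list, 12 of 26 genes were at least 2-fold higher and none 2-fold lower, with a median of 0.88.

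Cycling FAPs of the same library (144 cells, against 284 without a UMI of *Top2a* or *Mki67*) gave a second cell type for comparison, with 6059 genes compared, of which 3.90% were at least 2-fold higher and 1.77% at least 2-fold lower. Of the 440 genes higher in cycling macrophages, 236 had enough UMIs in FAPs, and 178 of these, or 75.4%, were at least 2-fold higher there. The same 178 were 78.4% of the 227 genes higher in FAPs that could be compared in macrophages. Cycling cells of both types were chosen by the same rule on *Top2a* and *Mki67*, so an overlap of cell cycle genes was built in. *Ccne1* had a log2 ratio of 3.41 (3.04 to 3.81) in macrophages and 1.14 (0.63 to 1.68) in FAPs, *Cdkn2c* of 3.15 (2.89 to 3.43) and 1.83 (1.41 to 2.29), and *Cdk4* of 0.84 (0.75 to 0.93) and 0.50 (0.37 to 0.64), in each case with intervals that do not overlap. *Ccne2*, *Cdk2*, *E2f1*, *Rbl1* and *Ccnd1* had overlapping intervals in both cell types. *Cdkn1c* (p57) stood at 5.59 CPM in cycling macrophages and 2.99 in non-cycling ones, where it fell below the count minimum. In FAPs it was at 23.8 and 67.3 CPM, with a log2 ratio of -1.50 (-1.82 to -1.20). Levels differed as well: *Ccnd2* had 3.32 CPM (2.38 to 4.51) in cycling macrophages and 88.7 CPM (80.4 to 97.6) in cycling FAPs, and *Cdk6* 80.3 and 12.7 CPM. Differences between cell types rest on 1 library and were not tested beyond counting error.

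**Figure D3:**
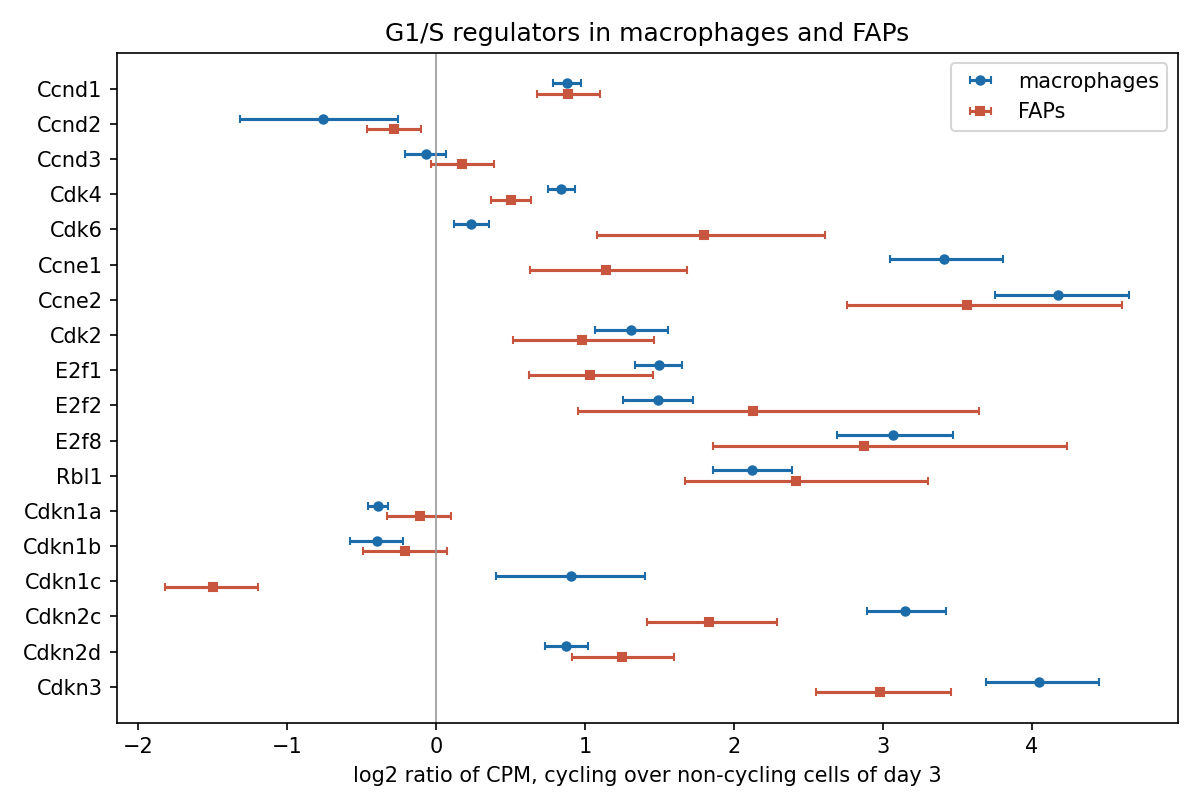
Log2 ratio of CPM, cycling over non-cycling cells of day 3, for 18 regulators of the G1/S step in macrophages (circles) and FAPs (squares). Bars are 95% intervals of counting error, which are wide where a gene has few UMIs, as for E2f2 in FAPs. Ccne1 and Cdkn2c lie further right in macrophages, and Cdkn1c lies at 0.91 in macrophages and -1.50 in FAPs. Cdkn1c and Ccnd2 fell below the count minimum in macrophages.

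The 516 cells covered the cycle from S phase to mitosis. For each cell, UMIs of 25 S phase genes were set against UMIs of 25 G2/M genes, and the S share was their part of both. The S share had a median of 69.2% (quartiles 27.9% and 87.8%), 234 cells lay above 75% and 117 below 25%, and 1 cell had no UMI of either list. Cells were ordered by this share into 3 ranges of 172 cells, called S-rich, intermediate and G2/M-rich here, which are ranges and not types: 145 cells lay within 5 percentage points of a boundary. The ranges had similar depth, with medians of 22232, 22764 and 23532 UMIs per cell. Phase calls also read free RNA, estimated at 1.06% of the UMIs of gated macrophages, and whether it differs between the ranges was not tested.

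Levels of cyclins, histones and inhibitors across the ranges are shown in the plot of levels by S share. Of the genes given here, *Ccnb1* is in the G2/M list that ordered the cells, so its order was fixed, and the others are in neither list. *Ccne1* and *Ccne2* had 38.8, 52.8 and 3.33 CPM and 48.9, 59.0 and 2.62 CPM from S-rich to G2/M-rich, and *Ccnd1* 183, 151 and 88.0 CPM. Histones peaked in between, with *Hist1h1b* at 14.9, 222 and 71.3 CPM and *Hist1h2ae* at 8.62, 199 and 80.4 CPM. *Pclaf*, a marker of the cells, peaked there too at 164, 452 and 260.1 CPM. *Cdkn3* had 5.07, 26.5 and 107 CPM and *Cdkn2c* 17.0, 61.6 and 80.8 CPM, and *Ccnb1* 12.9, 55.2 and 177 CPM. Of the 2 genes that chose the cells, *Top2a* had 120.4, 403 and 435 CPM and *Mki67* 92.7, 285 and 386 CPM, so the rule found S-rich cells at lower levels of both. *Cdkn1a* peaked in the intermediate range, at 191, 271 and 164 CPM.

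**Figure D4:**
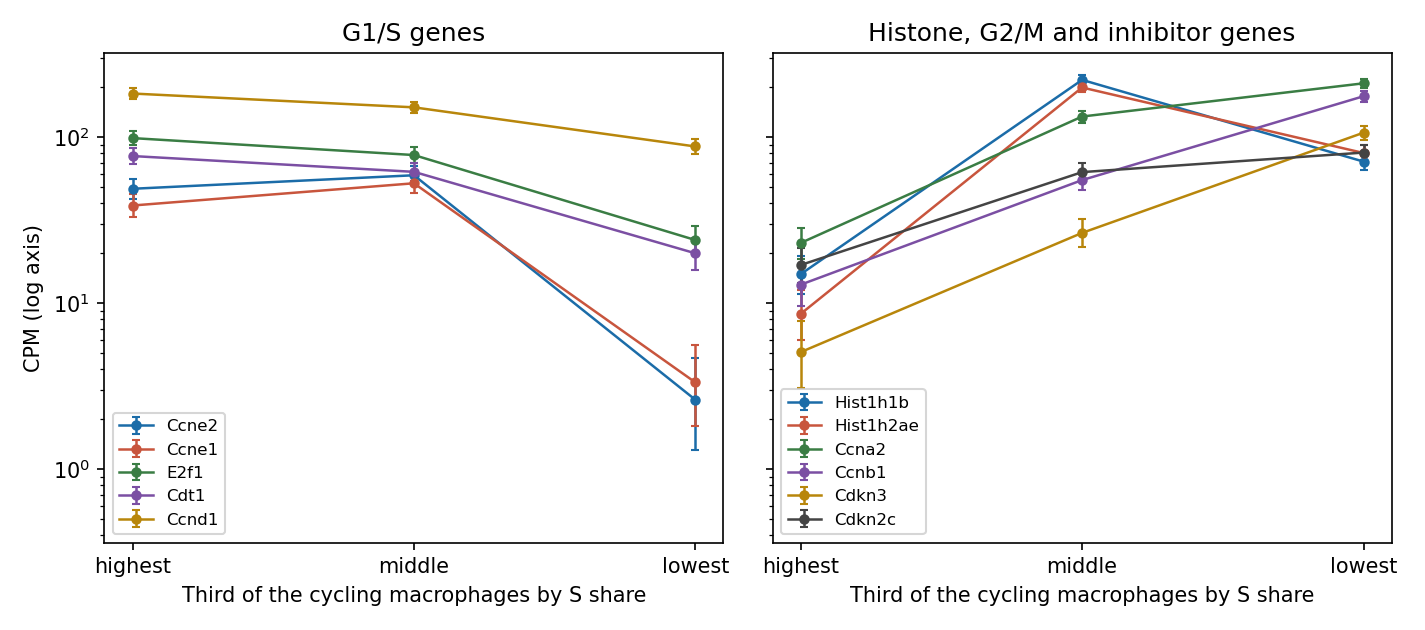
Levels of 5 G1/S genes (left) and 6 histone, G2/M and inhibitor genes (right) in cycling macrophages of day 3, by the S share of S and G2/M UMIs in the cell, in 3 ranges of 172 cells. Points are CPM on a log axis and bars are 95% Poisson intervals; Ccne2 goes from 48.9 to 2.62 CPM and Cdkn3 from 5.07 to 107 CPM, and Hist1h1b is highest in the middle at 222 CPM.

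Of the macrophage genes followed across the ranges, *H2-Aa* differed most. *Gpnmb*, a transmembrane glycoprotein of lipid-handling macrophages, had 912, 768 and 876 CPM, *Spp1*, osteopontin, 12063, 11487 and 13306 CPM, and *Folr2*, the folate receptor of resident-like macrophages, 386, 352 and 355 CPM. *H2-Aa* of MHC class II had 103, 203 and 495 CPM. The 10 cells with at least 4 UMIs of the dendritic cell gene *Cd209a* carried much of it, 7 of them in the G2/M-rich range. Without them *H2-Aa* was at 89.7, 156 and 251 CPM.

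Growth and energy genes moved less than cell cycle genes. For ribosome biogenesis, 2 of 23 genes were at least 2-fold higher, where 5.22% of all genes compared were. The median log2 ratio of the list was 0.46, and 22 of 23 lay above 0. These were *Dkc1* (dyskerin) with 1.15 (0.91 to 1.38) and *Nolc1* with 1.12 (0.98 to 1.26). Both intervals include ratios under 2-fold, and the lowest log2 ratios under other processing settings were 0.92 and 0.49. The abundant nucleolar genes *Ncl* and *Npm1* had 0.72 (0.67 to 0.77) and 0.62 (0.58 to 0.66). *Myc* was at 18.4 and 13.4 CPM. No gene of the respiratory chain (28 compared, median 0.14) or of glycolysis (15 compared, median 0.05) reached 2-fold. The same held for 15 targets of p53, which had a median of -0.23, with the antiproliferative gene *Btg2* at -0.68 (-0.77 to -0.59). The median over all genes compared, 0.06, is the level to read these against.

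Genes of blood monocytes were lower in cycling macrophages. Among the 10 lowest genes of all were *Hp*, *Wfdc21*, *Ifitm6*, *Plac8*, *Prtn3*, *Lcn2*, *S100a8*, *Ly6c2* and *Slpi*. *Plac8* had 64.8 CPM (60.3 to 69.4) in cycling and 495 CPM (486 to 504) in non-cycling macrophages, a log2 ratio of -2.93 (-3.04 to -2.83). *Ly6c2*, of the Ly6C antigen of inflammatory monocytes, had 38.3 CPM (34.9 to 41.9) against 251 CPM (245 to 258). *Hp* (haptoglobin) had the lowest log2 ratio of all, -3.30 (-3.59 to -3.03), and *S100a8*, of calprotectin, had -2.92 (-3.04 to -2.81). Of 14 monocyte genes compared, 11 were at least 2-fold lower, against 1.57% of all genes, with a median of -2.22. They included *Ccr2*, the receptor that brings monocytes out of bone marrow, with 148 CPM (141 to 155) against 323 CPM (316 to 330.2), *Vcan* (versican) with -2.64 (-2.83 to -2.47) and *Chil3* with -1.70 (-1.76 to -1.65). *Fn1*, fibronectin, was on the other side at 0.30 (0.25 to 0.34). *Lcn2*, *Prtn3*, *Wfdc21* and *S100a8* are also neutrophil genes, and the 7 neutrophil markers together had 92.5 CPM in cycling and 520.3 CPM in non-cycling macrophages.

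Cells with few monocyte transcripts were more frequent among cycling macrophages. Under 100 CPM of *Plac8*, *Ly6c2*, *Vcan* and *Hp* together were 74.0% (70.0 to 77.8) of cycling and 41.3% (38.9 to 43.6) of non-cycling macrophages. A shallow cell exceeds this limit at fewer UMIs than a deep one, and the groups had median depths of 22736 and 11935 UMIs. The part of depth in these shares was not tested. The 382 and 711 cells under the limit were then compared alone. Of 7387 genes, 8 were at least 2-fold lower, where all cells had given 132 of 8433, and 361 were at least 2-fold higher. Since the limit removes cells by these genes, fewer monocyte genes stay measurable. Of the 132 lower genes, 62 still had enough UMIs, and 7 of them were still 2-fold lower. The levels of the 4 genes that set the limit are low in both groups by construction. *Chil3* and *Ccr2*, which did not set it, had log2 ratios of -0.97 and -0.23 in these cells, and the monocyte list a median of -0.25 over 6 genes. With non-cycling cells weighted to the depths of cycling ones instead, 42 genes were at least 2-fold lower and the median of the monocyte list was -1.37. The 8 genes lower in these cells, named after their values were seen, were *Kdm5b*, *Hist3h2a*, *Tcp11l2*, *Il18bp*, *Ighm*, *Mxd4*, *Ms4a4a* and *Atp6v0d2*. *Mxd4*, which encodes a partner of MAX that opposes MYC, had 18.4 CPM in cycling and 41.4 CPM in non-cycling cells, and *Kdm5b*, a histone demethylase, 4.79 and 14.3 CPM. This comparison was chosen after the values of all macrophages were seen.

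Interferon genes were lower in cycling macrophages, and this too was smaller among cells with few monocyte transcripts. Of 19 genes compared, 7 were at least 2-fold lower, against 1.57% of all genes. A log2 ratio below 0 was found for 18, with a median of -0.96. *Irf7*, the factor that amplifies the response, had 69.7 CPM (65.1 to 74.5) against 170.1 CPM (165 to 175), *Isg15*, the ubiquitin-like modifier, 107 against 236 CPM, and *Ifitm3*, of the block to virus entry, 925 against 2086 CPM. *Cxcl10*, a chemokine, was at 178 CPM (171 to 186) and 139 CPM (134 to 144). In the 382 and 711 cells under the monocyte limit the median was -0.35, none of 17 genes was 2-fold lower, *Cxcl10* was 2-fold higher with a log2 ratio of 1.21, and *Irf7*, *Isg15* and *Ifitm3* had log2 ratios of -0.69, -0.40 and -0.50. With non-cycling cells weighted to the depths of cycling ones the median over all cells was -0.50.

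Genes of macrophage identity were present in both groups. None of 32 genes of macrophage identity reached 2-fold, and the median was -0.36. *Csf1r*, the receptor of the growth factor CSF1, had 311 CPM (301 to 321) in cycling and 377 CPM (369 to 385) in non-cycling macrophages, and *Csf2ra* and *Csf2rb*, of the GM-CSF receptor, had log2 ratios of -0.62 (-0.71 to -0.54) and -0.80 (-0.95 to -0.65). *C1qa*, of complement C1q, had 2311 against 1711 CPM. *Cebpb*, a factor of inflammatory activation, had the lowest log2 ratio of the list, -0.997 (-1.03 to -0.96), and *Apoe* had 6950.4 against 10403 CPM. Among cells under the monocyte limit, *Cebpb*, *Csf2ra* and *Csf2rb* had log2 ratios of -0.39, -0.28 and -0.32. *C1qa*, *Csf1r* and *Apoe* had 0.10, -0.22 and -0.97 there, against 0.43, -0.28 and -0.58 over all cells. The median of the identity list there was -0.29. None of the 27 genes of Gpnmb+Spp1+ macrophages reached 2-fold, with a median of 0.01: *Spp1* had 12292 and 11362 CPM, *Trem2*, a lipid receptor, 830.1 and 836 CPM, and *Gpnmb* 851 and 978 CPM. Among cells under the monocyte limit that median was -0.30, with *Atp6v0d2* of the lysosomal proton pump 2-fold lower at -1.05, and it was -0.43 with depth weighting, so its sign depended on the comparison cells.

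Genes of TLF+ resident-like macrophages had a median of 0.30 over 12 compared, with none at 2-fold. *Folr2* had 364 CPM (353 to 375) against 258 CPM (252 to 265), and *Mrc1*, the mannose receptor, 415 against 309 CPM. Among cells under the monocyte limit the median was -0.17. Of the defining genes, *Lyve1* and *Timd4* were rare. *Lyve1* had a UMI in 18 of 516 cycling and 14 of 1723 non-cycling cells, and *Timd4* in 0 and 2. *Folr2* was not rare, with a UMI in 434 cycling and 878 non-cycling cells. MHC class II genes had a median of 0.08 over 9, with *H2-Eb1* at 250.1 and 179 CPM. The sign of this median turned with the cells compared: it was -0.38 without cells that held muscle or dendritic cell markers, -0.44 under a stricter gate that required a UMI of each of *Fcgr1* and *Adgre1* and none of *Pdgfra* or *Ly6a*, -0.30 under the monocyte limit and 0.61 with depth weighting. *H2-Aa* had 271 CPM in cycling and 231 CPM in non-cycling macrophages, and 166 CPM in cycling cells without the 10 that held at least 4 UMIs of *Cd209a*. The costimulatory ligand *Cd86* was at 37.0 and 63.7 CPM. Of 24 pro-inflammatory genes, 3 were at least 2-fold lower, against 1.57% of all genes. They were *Clec4e* (the receptor Mincle) with -1.66 (-1.75 to -1.56), *Thbs1* (thrombospondin) with -1.51 (-1.56 to -1.46) and *Il1b* with -1.24 (-1.30 to -1.17). Only *Arg1*, arginase, was at least 2-fold higher, where 5.22% of all genes were. It had 58.4 CPM (54.2 to 62.8) against 27.2 CPM (25.1 to 29.4) and a UMI in 147 of 516 and 194 of 1723 cells. In cells under the monocyte limit these log2 ratios were -0.04, -0.85, -0.32 and 0.74. *Tnf* was at 90.5 and 91.0 CPM, and the median of the list was -0.19.

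The share of cycling cells was also read along these states, in 2548 gated macrophages thinned to 3000 UMIs each. A UMI of *Top2a* or *Mki67* was present in 22.5% (20.3 to 24.7) of 1437 cells without a UMI of the 4 monocyte genes, in 13.3% (10.5 to 16.6) of 495 cells with 1 to 3, and in 3.08% (1.87 to 4.77) of 616 cells with 4 or more. Over 7 interferon genes the shares were 19.5% (17.3 to 21.7), 13.8% (11.3 to 16.5) and 10.8% (8.29 to 13.7) in cells with 0, with 1 or 2, and with 3 or more UMIs. Over *Gpnmb*, *Trem2*, *Cd9* and *Syngr1* the share was highest in between, at 11.04% (8.91 to 13.5), 19.1% (16.0 to 22.5), 21.95% (18.6 to 25.6) and 13.8% (11.2 to 16.8) from the fewest to the most UMIs. Over the 3 C1q genes it was 8.02% (6.18 to 10.2) in cells with 0 or 1 UMI and between 17.8% and 20.3% in the other ranges. Cycling cells were thus found at every level of these genes and were fewest where monocyte genes were high. Over *Lyve1*, *Folr2*, *Cd163*, *Cbr2* and *Mrc1* the share went from 8.93% (7.14 to 10.99) in cells without a UMI to between 17.5% and 21.0% in the others, and over 4 MHC class II genes it was 17.1% (15.4 to 19.0), 13.4% (9.92 to 17.6) and 14.0% (11.1 to 17.3).

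**Figure D5:**
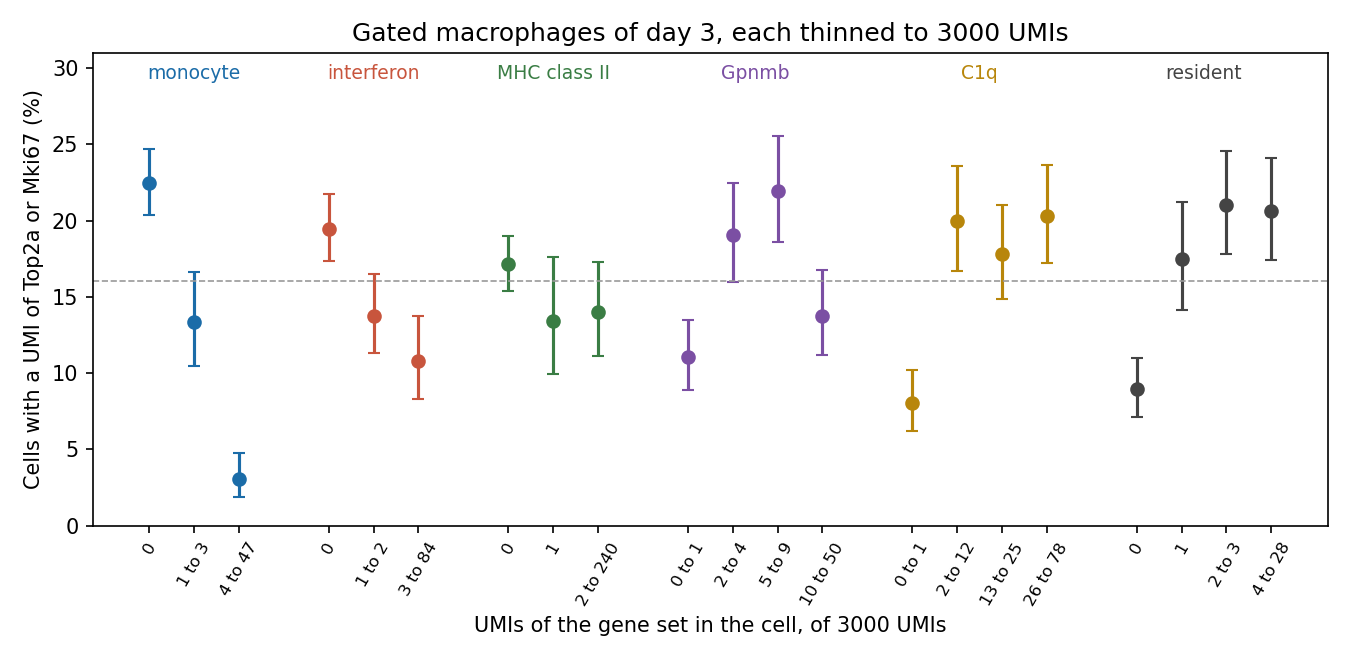
Percent of gated macrophages of day 3 with a UMI of Top2a or Mki67 after each cell was thinned to 3000 UMIs, by the UMIs of 6 gene sets in the same thinned cell. Points are shares, bars are 95% Clopper-Pearson intervals, and the dashed line is the share of all 2548 cells, 16.0%; the monocyte set runs from 22.5% to 3.08%, and the Gpnmb set is highest at 5 to 9 UMIs, at 21.95%.

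Markers of other cell types were present at low summed levels. At least 3 UMIs of FAP markers were held by 162 of 516 cycling macrophages, or 31.4%, and 385 of 1723 non-cycling ones, or 22.3%, and of neutrophil markers by 80 and 380 cells, or 15.5% and 22.1%, in groups of unequal depth. Their part in the results was not tested. Myoblast and satellite cell markers reached 3 UMIs in 4 of 516 cycling and 0 of 1723 non-cycling macrophages, and the 3 highest cells held 78.9% of those UMIs. *Myod1*, the myogenic factor, had 24 UMIs in 1 cycling cell. Dendritic cell markers reached 3 UMIs in 15 cycling and 9 non-cycling cells. The 10 cycling cells with at least 4 UMIs of *Cd209a* held 180 of its 189 UMIs; they had 7099 CPM of *H2-Aa* and 489 CPM of *C1qa*, against 166 and 2339 CPM in the other cycling cells. The 11 FAP markers together had 104 CPM in cycling and 173 CPM in non-cycling macrophages, endothelial markers 9.24 and 10.2 CPM, and lymphoid markers 4.21 and 6.70 CPM, with 7 of 10 lymphoid genes at 0 in cycling cells. Without the cells that held 3 UMIs of the muscle or dendritic cell markers, 442 genes were at least 2-fold higher and 141 lower. The part of doublets in the remaining cells was not tested.

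On day 1 the same rule found 0.766% (0.481 to 1.16) of gated macrophages, 22 of 2871 cells, and their other cell cycle genes stood far below those of day 3. Their median depth was 12080.5 UMIs, close to the 11515 of day 1 macrophages without a UMI of *Top2a* or *Mki67*. All gated macrophages had a median of 11589 UMIs on day 1 and 14117 on day 3, and day 1 cells were not thinned. Cell calling differed too, since day 1 barcodes were not first cut to a fixed number with the most UMIs. Day and library version cannot be told apart in this comparison. A UMI of *Pclaf*, *Birc5*, *Ube2c*, *Ccna2*, *Cdk1* or *Rrm2* was present in 1 of the 22 cells, or 4.55% (0.115 to 22.8), against 4.31% (3.57 to 5.14) of the 2693 without. That 1 cell held 4 UMIs of the 6 genes among its 40773 UMIs. *Stmn1* was higher in the 22 cells, that cell included, at 71.3 CPM (46.1 to 105.2) against 10.8 CPM (9.70 to 11.9) in the 2693. *Pcna* had 128 CPM (93.6 to 172) against 68.7 CPM (65.9 to 71.5). Cycling macrophages of day 3 had 677 and 380 CPM of these genes. *Birc5*, *Ube2c* and *Ccna2* were at 0 in the 22 cells, with an upper limit of 10.5 CPM (95% Poisson; a floor of 3 counts is 8.55 CPM), while cycling macrophages of day 3 had 229.8, 215 and 125 CPM. The replication list stood at 875 CPM in the 22 cells, 423 without that cell, and 263 CPM in day 1 macrophages without *Top2a* and *Mki67*, against 2847 CPM in cycling macrophages of day 3. *Top2a* and *Mki67* themselves, which chose the cells, were at 77.0 and 91.2 CPM, with 13 of the 22 cells at exactly 2 UMIs and a maximum of 6.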

How the data were processed

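Mononuclear cells of injured quadriceps were profiled with a 10x Genomics 3′ kit, 1 library of pooled mice at each of day 1 and day 3. The files that the authors deposited hold unnormalized UMI counts of every gene in all barcodes, and the submitters' processing notes name Cell Ranger 5.0.0 and mm10. Day 3 cells were those of the 6640 barcodes with the most UMIs that had at least 1000 UMIs, 200 genes and at most 7.5% mitochondrial UMIs. For day 1 the same limits were applied without a cut to a fixed number of barcodes. UMIs were summed per group and scaled to CPM, and log2 ratios had 0.5 added to each count. Genes with at least 200 UMIs in both groups together were compared, and 2-fold was the size called. With 1 library per day no test was made. Named genes were members of the lists, the 10 highest, the 10 highest in no cell cycle list, and the 10 lowest. The members and lists were chosen with earlier results of these data known. Scrublet's automatic threshold (scanpy 1.11.5) marked 0 of 4627 cells and thus did not work, so doublets were kept, and the 171 cells with the highest scores were removed as an alternative. Python 3.11.15, numpy 2.4.6, scipy 1.17.1 and pandas 2.3.3 were used, and the scripts were tested on simulated data. Some listed genes are not reported here.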

Additional observations from a re-analysis of the deposited data

Results flagged for a closer look

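Of the genes at least 2-fold higher in cycling than in non-cycling macrophages of day 3, 236 could be compared in FAPs. Over all genes compared in FAPs, 1.77% were at least 2-fold lower in cycling than in non-cycling cells. Of the 236, the one gene so was *Igfbp4*, which encodes a binding protein of insulin-like growth factors. It had 87.0 CPM in cycling and 41.5 CPM in non-cycling macrophages, a log2 ratio of 1.07 (95% confidence interval 0.94 to 1.19), and 256 CPM in cycling and 613 CPM in non-cycling FAPs, a log2 ratio of -1.26 (95% confidence interval -1.35 to -1.16). The interval in macrophages includes ratios under 2-fold, and *Igfbp4* was not followed under other processing settings. The difference between the cell types was not tested, since each has 1 library.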

How the results depend on the processing

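No paired analysis was possible because each day had 1 library, of different mice. The share of cycling cells, 20.1%, was 15.8% at 3 or more UMIs of *Top2a* and *Mki67*, 32.8% at 1 or more, 16.0% after thinning to 3000 UMIs, and 29.6% without cells that held monocyte genes. The 440 genes at least 2-fold higher became 83 when cells were chosen after thinning, 100 with the same groups thinned, 229 with a minimum of 500 UMIs and 950 with 20. The 132 lower genes became 68 when cells were chosen after thinning, 42 with the comparison group weighted to depth, 313 with a minimum of 20 UMIs and 8 without cells that held monocyte genes. Thinning and the minimums change how many genes can be compared, and other causes were not tested. The remaining 32 values of these 3 results stayed within 1.5 times the main count or within the interval of the share. Of 215 named or listed genes past 2-fold, 180 stayed so in the same direction under each alternative that measured them, which was between 7 and 17 alternatives. Of the 62 measured under all 17, 40 stayed so. *S100a9* reversed, to a log2 ratio of 1.15 without cells that held monocyte genes. The comparisons without cells holding monocyte genes, or muscle or dendritic cell genes, were chosen after seeing the data. Depth limits genes with few UMIs, and no value has a replicate.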
